A study of Drosophila melanogaster with 3 samples.

Results

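The vacuolar-type proton pump, or V-ATPase, is encoded in *Drosophila* by a family of genes whose symbols begin with Vha. These genes and *ATP6AP2*, an accessory protein of the pump, were taken by symbol from the tables of adult nephrocyte RNA. The rule gave 34 of 17768 genes, of which 13 encode subunits of the V1 sector, 18 subunits of the V0 sector and 3 accessory proteins. The rule itself uses symbols and no measured value, but it was set with earlier results of these data known. *Vha44* carried an older gene ID (FBgn0262511) in the tables and was matched through its transcript IDs.

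Nephrocytes are the large filtering cells of the fly that lie along the heart tube and clear proteins from the hemolymph by endocytosis. All 3 libraries came from 1 condition, control females aged 4 days of the genotype Hand-GFP, Klf15-Gal4, UAS-RFP over the balancer CyO, kept at 25 °C on food with 6% sucrose, so no comparison between groups was possible. Each library was a separate collection of 200 pooled flies, from which large cells positive for both GFP and RFP were sorted, and the submitters give 100 to 200 nephrocytes without saying whether that is per library. The GFP follows regulatory sequence of *Hand*, which is also active in heart cells, and the RFP follows *Klf15*-Gal4, so the sort chose cells by these reporters.

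The pump moves protons across membranes into endosomes, lysosomes and secretory vesicles, at the expense of ATP. The V1 sector lies in the cytosol and splits ATP at its A and B subunits, and this turns a central stalk of D and F. The V0 sector lies in the membrane and holds a ring of c and c″ subunits, which turns with the stalk, and the a subunit, past which the protons cross. Acid in endosomes releases cargo from receptors such as cubilin, and acid in lysosomes activates the enzymes that degrade it. In *Drosophila* several subunits have more than 1 gene, and such paralogs can be used in different tissues.

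Levels are given in TPM, a share of all transcripts that is corrected for transcript length, so that genes can be set side by side. This correction does not remove differences in the recovery of long transcripts, which in TPM were lower in library 2 (below). Genes with at least 1 TPM in each of the libraries are called detected. The libraries held 8801238, 7808930 and 8797916 expected counts. All 8 nephrocyte markers were detected, led among those named here by *Amnionless* at 5794 ± 591 TPM and *Hand* at 4697 ± 459 TPM (mean ± SD, n = 3 libraries here and below). Of 13 muscle and heart genes 11 were detected, and their summed level was 5806, 3069 and 9698 TPM in libraries 1, 2 and 3. None of 6 Malpighian tubule markers was detected (sum 0, 0.07 and 0 TPM, *Uro* at 0). Of 7 neuron and glia markers, summing to 274, 164 and 314 TPM, *Syx1A* was detected at 183, 113 and 175 TPM and *nrv2* at 88.4, 49.1 and 137 TPM, while *elav* was at 1.23, 0.87 and 1.95 TPM, *nSyb* at 0.46, 0.10 and 0 TPM, and *brp* at 0.03 TPM in each library. Of 8 hemocyte, 8 fat body, 6 midgut and 6 ovary markers, 3, 1, 1 and 1 were detected. The hemocyte markers summed to 563.7, 387.7 and 489.4 TPM, with *crq* at 351.7 ± 42.8 TPM and *srp* at 121.0 ± 56.9 TPM. The fat body markers summed to 10.84, 14.98 and 303.98 TPM, so they were far higher in library 3. Most of that sum was *Obp99b*, at 8.73, 12.76 and 298.99 TPM. The midgut markers summed to 4.29, 1.65 and 1.87 TPM. The detected ovary marker was *grk*, at 101.3 ± 11.5 TPM. In these bulk samples a different number of cells of a type and a different amount of RNA per cell cannot be told apart.

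RNA was present for every V-ATPase subunit in the list. Of the 34 genes 18 were detected, against 40.5% of all 17768 genes, and the same 18 were above 10 TPM in every library, against 25.4% of all genes. They covered each of the 8 V1 subunits, the 5 V0 subunits with a gene in the list and both accessory proteins. The 34 genes together reached 12278, 11966 and 12191 TPM in libraries 1, 2 and 3. This was 12145 ± 161 TPM, or 1.21 ± 0.016% of all transcripts. Relative to its mean, the sum varied less between libraries than the sums of its V1, V0 and accessory genes did. V1 genes reached 4851, 4938 and 5408 TPM, V0 genes 5929, 5549 and 5397 TPM, and accessory genes 1498, 1479 and 1386 TPM. The ratio of summed V1 to summed V0 was 0.818, 0.890 and 1.00, so V0 RNA exceeded V1 RNA in libraries 1 and 2 and the sums were almost equal in library 3.

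The detected genes were abundant as well as present. Their median level was 629 TPM, where the median over all 7193 detected genes was 20.9 TPM. The leading gene of each of the 15 subunits and accessory proteins ranked between 81st (*Vha16-1*) and 436th (*VhaSFD*) of 17768 by mean TPM. The other 3 detected genes were second paralogs, *Vha68-1*, *Vha100-2* and *VhaM9.7-c*. The remaining 16 genes together gave 2.93 ± 0.52 TPM, which was 0.0241% of the summed V-ATPase level. The detected and undetected genes were far apart. The lowest detected gene was *Vha68-1* at 21.1 ± 8.59 TPM, and the highest value of any gene that was not detected was 1.16 TPM, for *VhaM9.7-a* in library 3.

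**Figure D1:**
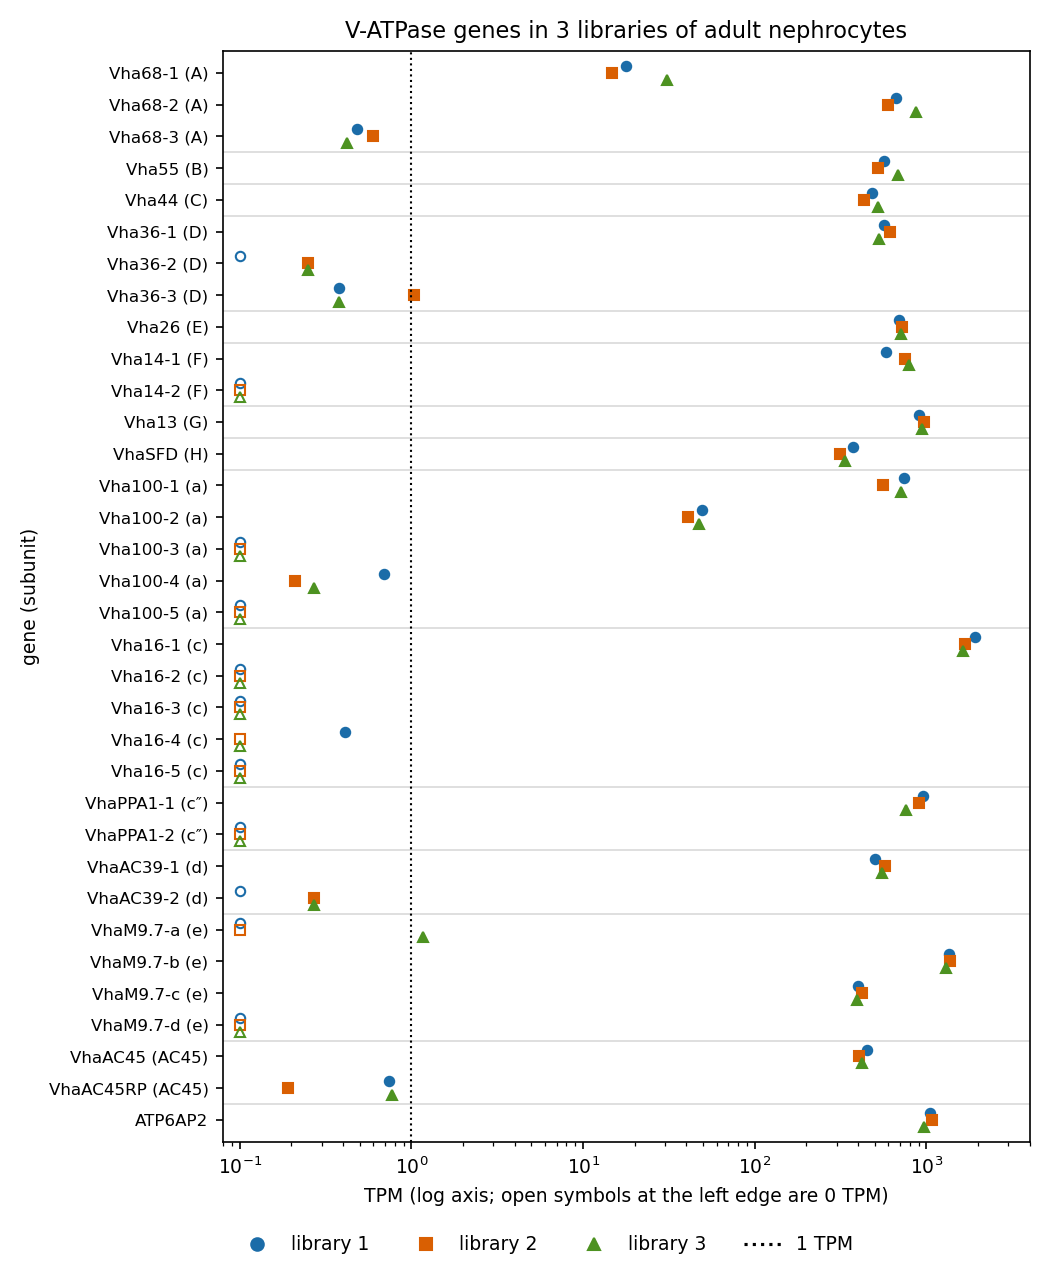
Level of each of the 34 V-ATPase genes in TPM (log axis) in libraries 1 (circles), 2 (squares) and 3 (triangles), grouped by subunit, with open symbols at the left edge for 0 TPM and a dotted line at 1 TPM. In each subunit with several genes the leading gene lies far to the right, at a mean of 425 TPM or more, and 16 genes lie near or below 1 TPM.

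The catalytic head of V1 is built from alternating A and B subunits. Subunit A, which binds and splits ATP, has 3 genes close together on chromosome 2L. *Vha68-2* (FBgn0263598, BDGP6.54 coordinates chr2L:12974322-12978607, plus strand) was at 667, 601 and 868 TPM, or 712 ± 139 TPM. *Vha68-1* (chr2L:13000770-13004107, minus strand) was at 17.7, 14.8 and 30.9 TPM. *Vha68-3*, which begins 178 bases after the end of *Vha68-2* on the same strand, was at 0.48, 0.60 and 0.42 TPM, from 8, 10 and 7 expected counts. Neighbouring genes of 1 family thus differed widely in level, and *Vha68-2* gave nearly all A subunit RNA in every library. Both *Vha68-2* and *Vha68-1* were highest in library 3 and lowest in library 2. The muscle and heart marker sum had the same order of libraries, and its part in this was not tested. Subunit B has a single gene, *Vha55*, on chromosome 3R. It was at 565, 521 and 682 TPM and had the same order of libraries as the A subunit genes.

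The stalks of V1 join the head to the membrane sector. *Vha36-1* encodes subunit D of the central stalk and was at 565, 617 and 530 TPM, or 571 ± 43.7 TPM. Its paralogs *Vha36-2* and *Vha36-3* were at or near the limit of detection, at 0, 0.25 and 0.25 TPM and at 0.38, 1.04 and 0.38 TPM, and *Vha36-3* rested on 3, 7 and 3 counts. *Vha14-1*, for subunit F, was at 584, 753 and 792 TPM. Its paralog *Vha14-2* had no count in any library. The peripheral stalks that hold the head still are made of E and G. *Vha26*, for subunit E, was at 693, 717 and 707 TPM, a 1.03-fold range and the narrowest in fold of any detected V-ATPase gene. *Vha13*, for subunit G, was the most abundant V1 gene at 904, 966 and 940 TPM, a mean of 937 ± 31.0 TPM. These peripheral stalk subunits have 1 gene each.

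Subunits C and H bind V1 to V0 and control whether the sectors are coupled. *Vha44*, for subunit C, was at 483, 431 and 521 TPM. *VhaSFD*, for subunit H, was at 372, 315 and 335 TPM, and was the lowest of the 15 subunits and accessory proteins. Both were lowest in library 2. Exons of *Vha44* share 148 bases with exons of *Hmgs* on the opposite strand, 3.68% of the exon bases of *Vha44*. *Hmgs* was at 50.0 TPM. The strand setting of the read counting is not given in the sources used here, so how reads from the shared bases were assigned is not known. The expected counts of *Vha44* were whole, at 6039, 5425 and 6476, so no reads divided between genes are seen in them.

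In V0 the c ring carries the protons. *Vha16-1*, for subunit c, was the most abundant V-ATPase gene, at 1932, 1679 and 1631 TPM and rank 81 (FBgn0262736, chromosome 2R, minus strand). *Vha16-4* had 1 count in library 1 and none in the others. *Vha16-2*, *Vha16-3* and *Vha16-5* had no count in any library. Apart from that single count, all c RNA counted came from *Vha16-1*. *VhaPPA1-1*, for subunit c″, was at 957, 904 and 763 TPM, or 875 ± 100.2 TPM. Its paralog *VhaPPA1-2*, which lies 2052 bases away on the same strand with 1 gene between, had no count. Both ring genes were highest in library 1 and lowest in library 3. *Vha68-2*, *Vha68-1* and *Vha55*, of subunits A and B, were highest in library 3 and lowest in library 2, so the orders differed without being reversed.

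Subunit a anchors the pump to its membrane and forms the path for protons. In yeast and in mammals its isoforms place the pump in different compartments. The fly has 5 genes for it. *Vha100-1*, studied in fly neurons for its part in synaptic vesicles, was at 738, 562 and 707 TPM, or 669 ± 94.1 TPM. *Vha100-2* was at 49.5, 40.7 and 47.6 TPM, or 45.9 ± 4.66 TPM. Both genes were present in every library and both were lowest in library 2. The summed neuron and glia markers were also lowest in library 2 (274, 164 and 314 TPM). That sum came almost wholly from *Syx1A* and *nrv2*, and its part in the levels of the a subunit genes was not tested. Long transcripts in general were lower in library 2. Set against the mean of libraries 1 and 3, the log2 ratio in library 2 was -0.36 for *Vha100-1*, beside -0.38 for detected genes of similar length. For *Vha100-2* it was -0.26 beside -0.41. *Vha100-4*, 517 bases from *Vha100-2* on the same strand, was at 0.69, 0.21 and 0.27 TPM from 13, 4 and 5 counts. *Vha100-3* and *Vha100-5* had no count.

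The other V0 subunits are d, which links the c ring to the central stalk, and the small membrane protein e. *VhaAC39-1*, for subunit d, was at 503, 574 and 549 TPM. Its paralog *VhaAC39-2* had 0, 2 and 2 counts. Subunit e was the only one with a large contribution from more than 1 gene. *VhaM9.7-b* was at 1348, 1370 and 1302 TPM, or 1340 ± 35.0 TPM, and *VhaM9.7-c* at 400.2, 419 and 396 TPM, or 405 ± 12.1 TPM. These genes kept close to the same level in all 3 libraries. *VhaM9.7-a* had 2 counts in library 3 and none in the others, and *VhaM9.7-d* had none in any library.

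The accessory proteins sit in the membrane beside V0. *VhaAC45* encodes the AC45 subunit, which helps to assemble and sort the pump, and was at 451, 406 and 419 TPM. *VhaAC45RP*, a related gene, was at 0.74, 0.19 and 0.77 TPM from 8, 2 and 8 counts. *ATP6AP2*, known in mammals as the prorenin receptor and needed for pump assembly, was at 1046, 1073 and 966 TPM, or 1028 ± 55.4 TPM. By mean only *Vha16-1* and *VhaM9.7-b* were above it among the 34 genes.

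In all 9 families with paralogs 1 gene led in every library. *Vha68-2* gave 97.3%, 97.5% and 96.5% of subunit A RNA. *Vha100-1* gave 93.6%, 93.2% and 93.7% of subunit a RNA, and *VhaM9.7-b* 77.1%, 76.6% and 76.6% of subunit e RNA. The shares of *Vha100-1* and of *VhaM9.7-b* had an SD of 0.25 and 0.29 percentage points, so the split between their paralogs hardly moved between libraries although the level of *Vha100-1* varied 1.31-fold. In the other 6 families the leading gene gave between 99.9% and 100% of the subunit's RNA on average. The leading genes there were *Vha36-1*, *Vha14-1*, *Vha16-1*, *VhaPPA1-1*, *VhaAC39-1* and *VhaAC45*.

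Expressed as a fold within each library, *Vha68-2* exceeded *Vha68-1* by 37.7, 40.6 and 28.1 times, a log2 ratio of 5.13 ± 0.28. *Vha100-1* exceeded *Vha100-2* by 14.9, 13.8 and 14.9 times, a log2 ratio of 3.86 ± 0.06. *VhaM9.7-b* exceeded *VhaM9.7-c* by 3.37, 3.27 and 3.28 times, a log2 ratio of 1.73 ± 0.02. Each ratio was many times its SD, and each leader was higher in 3 of 3 libraries. The leading and next paralogs were picked by mean TPM over these same libraries, so the pick itself favoured a positive ratio. A sign-flip permutation test over the libraries, exact and two-sided, gave p = 0.25 for each of the 9 families (adjusted p = 0.25, Benjamini-Hochberg over the 9), which is the smallest p that 3 libraries allow, so no ratio could pass 0.05 by this test.

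Of the 16 genes that were not detected, 8 had no count in any library. Against a floor of 3 counts per library, *Vha14-1* was at least 1049-fold higher than *Vha14-2* in the library with the lowest bound. In the same way *Vha100-1* was at least 3785-fold higher than *Vha100-3* and at least 3598-fold higher than *Vha100-5*. *Vha16-1* was at least 1437-fold higher than *Vha16-2*, 1498-fold higher than *Vha16-3* and 1967-fold higher than *Vha16-5*. *VhaPPA1-1* was at least 819-fold higher than *VhaPPA1-2*, and *VhaM9.7-b* at least 823-fold higher than *VhaM9.7-d*. These bounds cover counting error only, since the reads come from amplified cDNA. The floors were between 0.148 TPM (*Vha100-3*) and 1.58 TPM (*VhaM9.7-d*) at their highest, so a lower level of these genes was not detectable at this depth. RSEM, which the authors used for quantification, divides reads that fit several genes. Every expected count of the 34 V-ATPase genes in the 3 libraries was whole within 0.005, also in the families with paralogs.

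**Figure D2:**
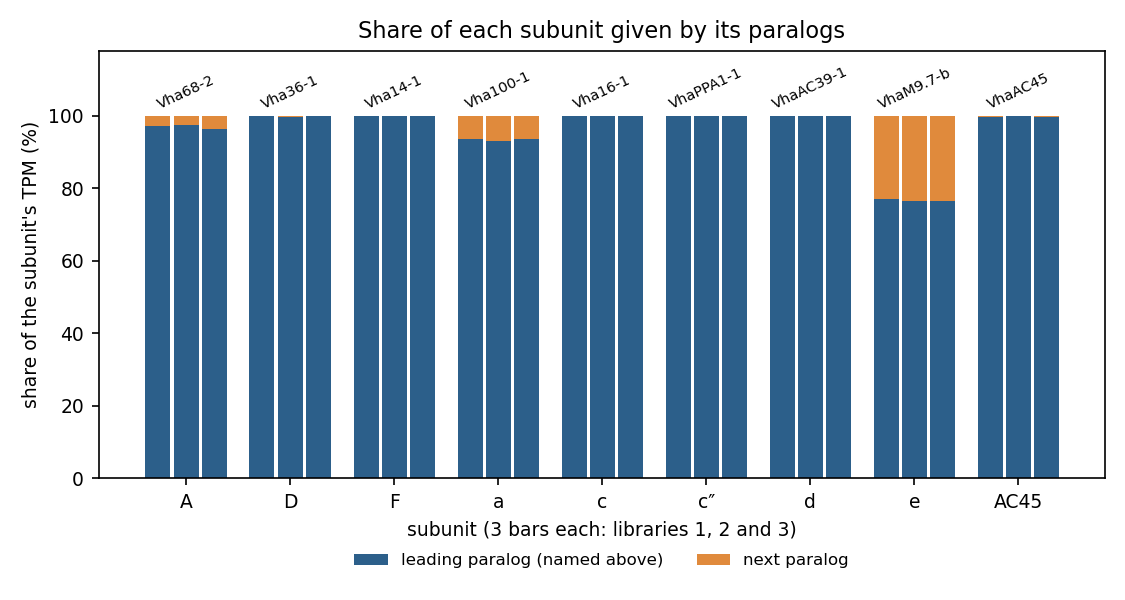
Share of each subunit's summed TPM (percent) given by its leading gene (blue, named above the bars) and the next gene (orange), with 1 bar each for libraries 1, 2 and 3. A second gene is visible for subunit A, subunit a and subunit e, where the leading genes gave 97.1%, 93.5% and 76.8% on average.

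With paralogs summed, the subunits spanned a 5.13-fold range. Subunits c and e were the highest, at 1747 ± 162 and 1746 ± 45.1 TPM. *ATP6AP2* at 1028 TPM, G at 937 TPM and c″ at 875 TPM followed. The subunits A, a, F and E lay close together, at 733 ± 148, 715 ± 98.9, 710 ± 111 and 706 ± 11.9 TPM. Below them came B at 589 TPM, D at 571 TPM, d at 542 TPM, C at 478 TPM, AC45 at 426 TPM and H at 341 TPM. In the assembled pump A, B, E and G are present in several copies and the c ring in more, while D, F, d, a, C and H are single. The RNA levels of A, B and E lay near those of the single-copy subunits a, F and D. By mean, c and G lay above all these single-copy subunits, and d, C and H lay below all the multi-copy ones. The part of copy number in RNA level was not tested.

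Most neighbours in this order did not differ beyond their spread. The order was set by the means of these same libraries, which favours a positive ratio of each subunit over the next. Of the 14 neighbouring pairs, 5 had a mean log2 ratio larger than its SD and the same direction in 3 of 3 libraries. Subunit e exceeded *ATP6AP2* by a log2 ratio of 0.76 ± 0.04, and AC45 exceeded H by 0.32 ± 0.04. *ATP6AP2* exceeded G by 0.13 ± 0.09, E exceeded B by 0.27 ± 0.20, and C exceeded AC45 by 0.16 ± 0.13. The exact two-sided sign-flip permutation test gave p = 0.25 for each of these, the smallest it can give (adjusted p = 0.583 over 14 pairs). Subunit d was also above C in 3 of 3 libraries, with a log2 ratio of 0.18 ± 0.20 that was within its spread. The other 8 pairs changed order between libraries. Among them were c and e, where c was higher in library 1 and e in libraries 2 and 3.

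**Figure D3:**
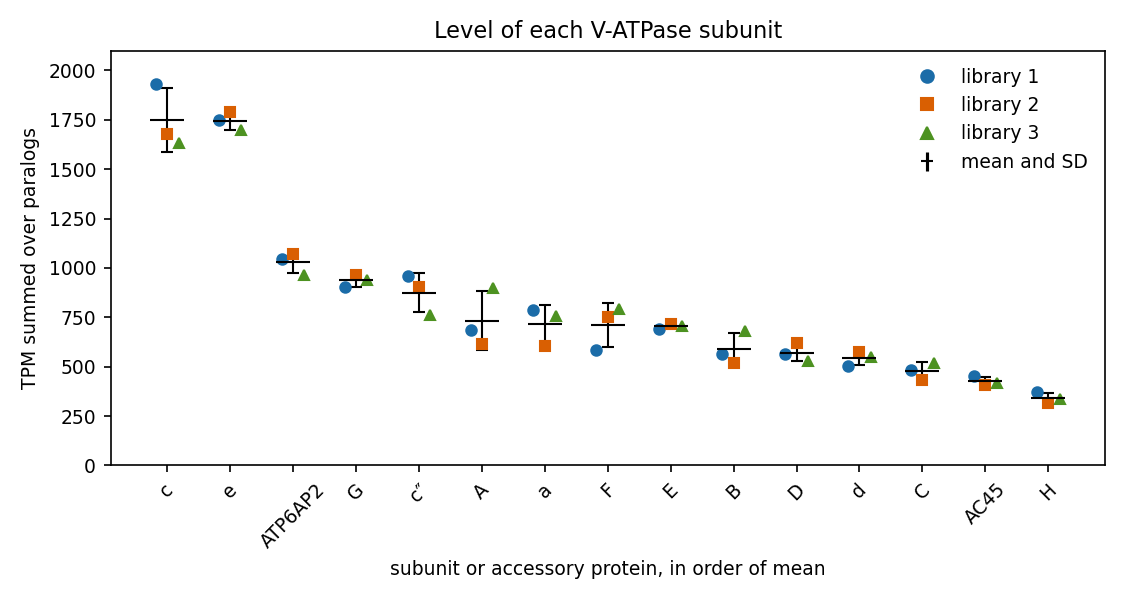
Level of each of the 15 subunits and accessory proteins in TPM summed over paralogs, in order of the mean, with points for libraries 1, 2 and 3 and black bars for the mean and SD (n = 3). Subunits c and e stand above the others at 1747 and 1746 TPM, and the points of A, a, F and E overlap.

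Transcript choice could be read for some genes, because the tables give each gene's length averaged over its transcripts by their estimated share. For 6 detected genes with 2 transcripts this length fixed the share of each. *Vha13* and *VhaM9.7-b* were almost wholly the short transcript, with the long one at 0.86 ± 0.55% and 0.70 ± 0.20%. *Vha68-1* was wholly the long transcript of 2610 bases, and *VhaPPA1-1* and *VhaAC45* were mostly the long one, at 97.1 ± 0.52% and 91.9 ± 2.78%. *Vha100-2* was mixed, with 40.3 ± 1.83% as its 3044-base transcript and the rest as one of 3006 bases. In each of these pairs the coding sequence was the same, so the transcripts differ only outside it. The lengths of the *VhaPPA1-1* pair differ by little (1348 and 1352 bases), and all these shares are RSEM's estimates.

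*Vha44* was the detected gene whose coding transcripts differed most in length. Its 5 annotated transcripts comprise 2 short ones of 1431 and 1470 bases with 1164 coding bases, and 3 longer ones. The longer ones have 2693 bases with 1326 coding bases, and 3820 and 3875 bases with 2508 coding bases. Average length was 1895, 1921 and 1894 bases in libraries 1, 2 and 3. From these the longer transcripts together made up between 17.7% and 36.8% of *Vha44* RNA in library 1, between 18.8% and 38.8% in library 2, and between 17.6% and 36.7% in library 3. The bounds arise because the length does not say which longer transcript was present. In all libraries the short transcripts, which encode the smaller protein, were the majority. *Vha100-1* has 10 annotated transcripts with 5 coding variants and *VhaSFD* 4 with 3, and the gene length does not separate these.

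The levels of most detected V-ATPase genes were steady between libraries. The median SD of log2 TPM was 0.13 for the 18 detected genes, against 0.28 for all detected genes and 0.19 for detected genes of similar level, within 2-fold. Of the 18 genes, 13 had an SD below the median of genes of similar level, against 50% of all detected genes. *Vha26* varied least, by 1.03-fold from the lowest to the highest library (SD 0.02). *VhaM9.7-b*, *VhaM9.7-c* and *Vha13* also varied little, by 1.05-fold, 1.06-fold and 1.07-fold. *Vha68-1* varied most, by 2.09-fold (SD 0.55, against 0.28 for genes of similar level), and the next was its paralog *Vha68-2*, by 1.45-fold (SD 0.27, against 0.19). *Vha14-1* (SD 0.237 against 0.186), *Vha100-1* (0.212 against 0.189) and *Vha55* (0.198 against 0.192) also lay above genes of similar level. Genes were matched here on level and not on length.

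Library 2 had lower values of long transcripts over the whole table, and the V-ATPase genes were read against that. Of the 18 detected genes 8 were lowest in library 2, against 48.3% of all detected genes, and 7 were highest there, against 24.7%. The genes lowest in library 2 were *Vha68-1*, *Vha68-2*, *Vha55*, *Vha44*, *VhaSFD*, *Vha100-1*, *Vha100-2* and *VhaAC45*. All 8 had transcripts longer than the median of detected genes, 1820 bases. Of the 10 V-ATPase genes above that length 8 were lowest in library 2, against 70.5% of all such genes, and of the 8 shorter ones 0 were, against 26%. The difference from the background was not tested in either length class. Set against the mean of the other libraries, the median log2 ratio in library 2 was -0.24 for the longer V-ATPase genes and 0.09 for the shorter ones, beside -0.43 and 0.08 for all detected genes of these classes.

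Single genes lay above or below the median for their length. *Vha16-1*, at an average of 2851 bases, had a log2 ratio of -0.08, where detected genes of similar length had a median of -0.35. *Vha26*, at 2178 bases, had 0.03, where genes of similar length had -0.14. That value was within the quartiles (-0.38 to 0.10) of the eighth of detected genes nearest in median length, 2034 bases. *VhaAC39-1*, at 1792 bases, had 0.13 beside -0.05 for genes of similar length. *Vha68-1* lay on the other side, at -0.66 beside -0.28 for genes of similar length. These are descriptions of 1 library. Over all 18 genes the median log2 ratio was -0.02 in TPM, beside -0.13 for all detected genes and -0.08 for genes of similar length. In CPM, which is not corrected for length, it was 0.14 beside 0.04 for all detected genes. With each library's trend on length removed it was 0.030 beside 0.0061. Without replicate 3 the V-ATPase median lay below that of all genes, at -0.10 beside -0.064, and without replicate 1 it was -0.014 beside -0.20, so its place relative to all genes depended on the library used for the comparison.

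**Figure D4:**
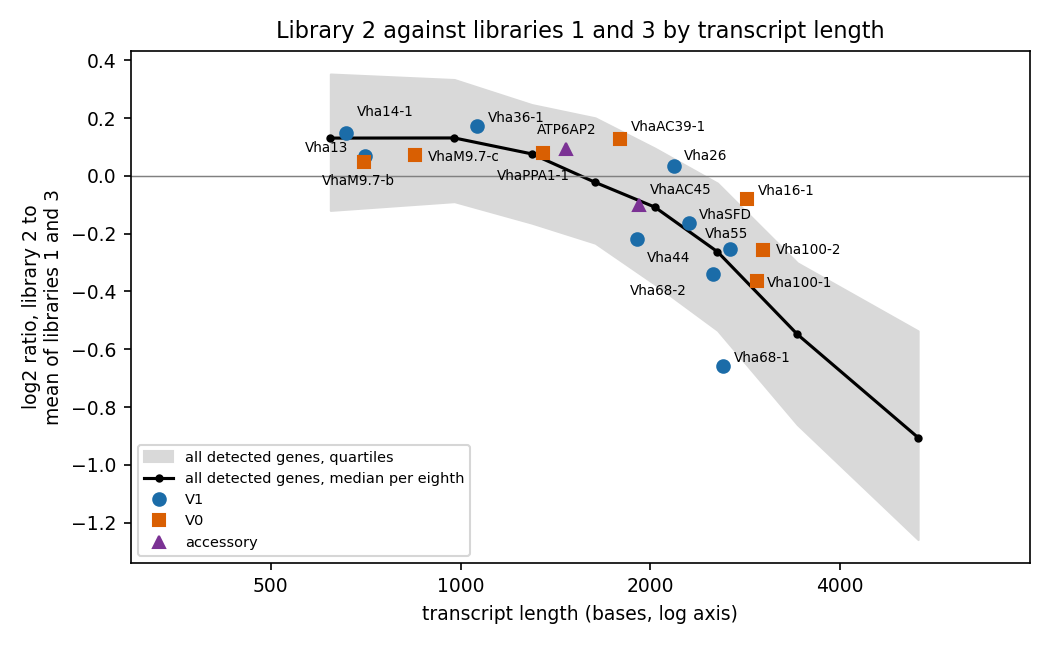
Log2 ratio of TPM in library 2 to that in libraries 1 and 3 (mean) against transcript length in bases (log axis) for the 18 detected V-ATPase genes, coloured by sector, with the median (line) and quartiles (grey) of all detected genes in eighths of length. Most V-ATPase genes follow the line. *Vha16-1* (-0.08) lies above it, as do *Vha26* (0.03) and *VhaAC39-1* (0.13) within the grey band, and *Vha68-1* (-0.66) lies below.

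The sectors' genes were also set against all genes by the library in which they were highest. Of the 9 detected V1 genes 5 were highest in library 3, where 52.3% of all detected genes were highest. They were *Vha68-1*, *Vha68-2*, *Vha55*, *Vha44* and *Vha14-1*, a share near that of all genes. Of the 7 detected V0 genes 4 were highest in library 1, where 22.8% of all detected genes were highest. They were the ring genes *Vha16-1* and *VhaPPA1-1* and the a subunit genes *Vha100-1* and *Vha100-2*. Muscle and heart markers were also highest in library 3 (9698 TPM, against 5806 in library 1), and the summed nephrocyte markers were lowest there (11119 TPM, against 12045 in library 1). Their part in the ratio was not tested.

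Genes that act with the pump were taken from a list of 17, of which 16 were found in the tables and all 16 were detected, where 40.5% of all 17768 genes were. Their means ran from 3.99 to 261 TPM, with a median of 84.4 TPM, so every one lay below the leading gene of each pump subunit. The RAVE complex, known from yeast, puts V1 back on V0. Its fly counterparts were uneven. *rogdi* was at 146, 119 and 136 TPM, *Rbcn-3B* between 6.71 TPM in library 2 and 21.8 TPM in library 3, and *Rbcn-3A* at 3.44, 5.09 and 3.43 TPM. The first of these was about as high as the Ragulator genes, while *Rbcn-3A* was the lowest of all partners and *Rbcn-3B* varied more between libraries than any detected pump gene. *mtd*, whose mammalian counterpart binds the pump, was at 91.7, 48.1 and 95.6 TPM. *Rbcn-3B* and *mtd* were lowest in library 2. The partners were not set against genes of similar length, so the part of the library 2 length trend in these values was not tested.

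Chloride transport by ClC proteins balances the charge that the pump moves. *ClC-c* was the highest partner at 260, 239 and 286 TPM, *ClC-b* was at 90.9, 88.6 and 91.7 TPM, and *ClC-a*, a channel of the plasma membrane, at 8.76, 2.42 and 13.7 TPM. *ClC-b* and *ClC-c*, whose mammalian relatives reside on endosomes and lysosomes, were thus the leading genes of the family here. *ClC-a* was lowest in library 2 and highest in library 3, as were the muscle and heart markers. The part of these markers, or of the library 2 length trend, in this was not tested.

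On the lysosome the pump takes part in nutrient sensing by TOR, through the Ragulator complex and the Rag GTPases. The 5 Ragulator genes had means from 72.3 TPM (*Lamtor4*) to 252 ± 35.0 TPM (*Lamtor2*). *RagC-D* at 109 ± 9.93 TPM was above *RagA-B* at 28.2 ± 2.19 TPM in every library. *Trpml*, a lysosomal cation channel, was at 32.8 ± 2.99 TPM. *Mitf*, the fly member of the TFEB family of transcription factors that acts on V-ATPase genes, was at 16.7, 15.4 and 19.8 TPM, or 17.3 ± 2.24 TPM, low beside the pump genes and steady across the libraries.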

How the data were processed

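Adult nephrocyte RNA was amplified as cDNA, sequenced in 3 libraries, mapped with STAR 2.7.5c and quantified with RSEM 1.3.3 on FlyBase annotation 6.28 (BDGP release 6) by the authors. The deposited expected counts are RSEM estimates and are not normalized. TPM and FPKM, as deposited, are also RSEM output of the authors. Deposited lengths average each gene's transcripts by estimated share, and equalled the annotated length for 10278 of 10303 genes with 1 transcript. The sources used here do not give read length, strand setting or filters.

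Symbols matched 17671 of 17768 IDs by a name table and 56 by transcript IDs in BDGP6.54 (Ensembl 115), which gave all coordinates. The named genes are the V-ATPase members, a list of partners and cell markers. Members and lists were chosen with earlier results of these data known. *Syx1A*, *nrv2*, *brp*, *crq*, *srp*, *Obp99b*, *grk* and *Hmgs* were named after their values were seen.

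Levels are the mean and SD of TPM. Paralog and subunit ratios were tested within libraries by an exact sign-flip permutation test, with 0.1 TPM added only where a paralog was at 0. CPM was computed from expected counts. TMM factors (edgeR 4.0.16) and DESeq2 1.42.0 size factors, on expected counts rounded to whole numbers, served only as scalings, and a lowess trend on length (fraction 0.3) was removed in 1 alternative. The trend removal was tested on simulated data. Intervals and floors (3 counts) cover counting error only. Software was Python 3.11.15 with scipy 1.17.1, statsmodels 0.14.6, pandas 2.3.3 and numpy 2.4.6, and R 4.3.3. Protein identity and promoter motifs, which need sequences, were not analysed here, nor were *VMA21* and 1 tubule marker, which matched no ID.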

Additional observations from a re-analysis of the deposited data

How the results depend on the processing

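Of 218 alternatives, 8 of 8 kept the count of 18 detected genes within 1.5 times, and 54 of 54 kept the direction of the ratios of leading to next paralog. That direction could hardly change, since the leaders were picked from these libraries and were at least 3.27 times the next paralog in each. Sums over all, V1, V0 and accessory genes were 14208, 5920.5, 6585 and 1703 TPM without mitochondrial genome and ribosomal RNA genes, 16315, 6378, 8173 and 1764 in CPM, and 10835, 4517, 5019 and 1299 in FPKM, where the unit itself differs. Leading shares of D, d and AC45 were 100% over detected paralogs alone, which follows from the single detected gene of each. With genes at 0 counts set to 3 counts, an alternative chosen after seeing the data, they were 99.9% for F, 99.8% for c and 99.9% for c″. The share of *VhaM9.7-b* was 71.5% in expected counts and 75.2% in counts divided by length.

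The order of subunits depended on the correction for length. In CPM the log2 ratio was 2.40 for c over e, -0.55 for e over *ATP6AP2*, -1.16 for G over c″, -0.77 for c″ over A, -0.22 for A over a, -0.060 for E over B and -0.84 for D over d. CPM gives long transcripts more reads. With 1 replicate left out, the ratio ran from -0.075 to 0.043 for c over e, from -0.086 to 0.14 for A over a, from -0.20 to 0.18 for a over F, from -0.088 to 0.12 for F over E and from -0.12 to 0.18 for B over D. The median log2 ratio of library 2 was 0.14 in CPM, 0.15 with TMM and 0.14 with DESeq2 scaling. Depth limits the genes that were not detected, whose values rested on at most 13 counts in any library. No paired analysis was possible because all libraries belong to 1 group. The planned comparisons of protein and promoter sequence were not run.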
